A study of Mus musculus with 5 samples.

Results

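The genes described here make, fold and finish collagen. They are 35 ER chaperones, disulfide isomerases, prolyl isomerases, prolyl and lysyl hydroxylases, lysyl oxidases and procollagen processing genes, chosen by name from their known functions. Earlier results of these data were known when these members and the other gene lists below were chosen. Of the 35 members, 34 had at least 1 tag in at least 1 of 5 libraries of the embryonic mouse heart, among 13486 genes found in all. *Loxl4* was the exception. The libraries came from hearts at embryonic day 10.5 (Theiler stage 17), each from tissue pooled over at least 3 litters, with 1 library per group and no replicates. Wild-type C57BL/6 embryos gave the AVC (the atrioventricular canal, where the atrioventricular valves form), the OFT (the outflow tract, where the aortic and pulmonary valves form), the atria and the ventricles. The fifth library was made from the AVC of *Twist1* knockout embryos on an ICR background and is called *Twist1* null AVC below. It was compared with a wild-type AVC of another strain, so genotype, strain and library cannot be told apart.

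Collagen chains enter the ER as they are made, and chaperones of the HSP70 and HSP90 families, the lectins calnexin and calreticulin, and disulfide isomerases fold them. Prolyl 4-hydroxylases, prolyl 3-hydroxylases and lysyl hydroxylases modify the chains, peptidyl-prolyl isomerases let the triple helix close, and HSP47, encoded by *Serpinh1*, binds the finished helix until it leaves the ER. Outside the cell, proteinases trim the propeptides and lysyl oxidases start the crosslinks between molecules. In the heart at this age the AVC and the OFT hold endocardial cushions, in which mesenchymal cells lie in a matrix that contains collagens, while the walls of the atria and ventricles are mainly muscle.

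In Tag-seq, NlaIII cuts each cDNA at CATG and the 17 bases next to the cut are sequenced. Every distinct sequence, or tag type, has a count, and levels are given in TPM, the tags per 1000000 tags of the library. The libraries held between 4223810 tags (ventricles) and 12977237 tags (*Twist1* null AVC). The smallest listed count, 6 tags, stands for 0.462 TPM in the *Twist1* null AVC and for 0.988 to 1.42 TPM in the other libraries, and a gene without a listed tag type is called not listed. Intervals on levels and ratios are 95% Poisson or binomial intervals. They hold counting error alone, because copies made by PCR are not separate molecules. *Twist1* itself was at 4.55 TPM in the *Twist1* null AVC, against 918 TPM in the AVC.

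The libraries differed in make-up, and these values stand beside every result below. Haemoglobin tags took 21.5% of the atria library and 4.67% of the ventricle library, against 0.242% (AVC), 0.307% (OFT) and 2.73% in the *Twist1* null AVC. Summed over the 9 markers of cushion mesenchyme, the level was 2441 TPM (AVC), 1577 (OFT), 182 (atria), 219.7 (ventricles) and 767 in the *Twist1* null AVC, and none of the 9 was at 0 in the AVC or the OFT. *Twist1* is 1 of these markers and gave 918 TPM of the AVC sum. Markers of cardiomyocytes summed to 21140 TPM (AVC) and 23246 (OFT), against 7746 (atria) and 22313 (ventricles), and 6 of the 9 were called higher in the AVC than in the chambers. All 7 erythroid markers were called lower in both cushion regions. Against the AVC, 4 of the 7 were called higher in the *Twist1* null AVC, with a summed level of 27354 TPM against 2426. In pooled tissue, fewer cells of a type and less RNA per cell cannot be told apart. The part of these differences in the members' results was not tested.

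The tags on which the member results turn are shown first, because the level of a member can rest on 1 tag type. CATG in capitals is the NlaIII site, the bases in lower case are the deposited tag, and sites are counted from the 3′ end of the transcript. Positions are on GRCm38 with GENCODE M21 exons, matched here to transcripts.
*Calr* site 1: CATGtcatctttaactacaag, chr8:84844910-84844930, minus strand, coding part of exon 4 of 9
*Calr* site 6: CATGctcctttcggtgccgct, chr8:84846779-84846799, minus strand, exon 1 of 9, across the start of the coding part
*Hspa5* site 1: CATGtggtgtaggaacttttt, chr2:34776399-34776419, plus strand, 3′ UTR in exon 8 of 8
*Hspa5* site 4: CATGgaaaaagctgtagagga, chr2:34775927-34775947, plus strand, coding part of exon 8 of 8
*Hsp90b1* site 1: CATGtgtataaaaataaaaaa, chr10:86690852-86690872, minus strand, 3′ UTR in exon 18 of 18
*Hsp90b1* site 2: CATGgatcttgctgtagtttt, chr10:86692252-86692272, minus strand, coding part of exon 16 of 18
*Canx* site 5: CATGtaacagttgtgtcttaa, chr11:50294990-50295010, minus strand, 3′ UTR in exon 15 of 15
*Canx* site 12: CATGaagcaactaactagtgt, chr11:50296016-50296036, minus strand, 3′ UTR in exon 15 of 15
*Serpinh1* site 1: CATGaacttttgtttttctcc, chr7:99345545-99345565, minus strand, 3′ UTR in exon 6 of 6
*Serpinh1* site 3: CATGggaggggctccctggca, chr7:99345602-99345622, minus strand, 3′ UTR in exon 6 of 6
*Fkbp9* site 1: CATGcaaatgctgtgcactca, chr6:56879277-56879297, plus strand, 3′ UTR in exon 10 of 10
*Fkbp9* site 2: CATGtggtagctatgctccta, chr6:56879134-56879154, plus strand, 3′ UTR in exon 10 of 10
*Crtap* site 1: CATGttcagaaagacagtctt, chr9:114375229-114375249, minus strand, 3′ UTR in exon 7 of 7
*P4ha2* site 1: CATGtgtgtttttatcacatt, chr11:54131584-54131604, plus strand, 3′ UTR in exon 16 of 16
*Plod1* site 5: CATGgtgctcccactaatctc, chr4:147910516-147910536, minus strand, 3′ UTR in exon 19 of 19
*Plod2* site 1: CATGtctttctgctttacaaa, chr9:92607898-92607918, plus strand, 3′ UTR in exon 20 of 20
*Plod2* site 4: CATGtctctgaagttgtactt, chr9:92607285-92607305, plus strand, 3′ UTR in exon 20 of 20
*Pcolce* site 1: CATGaagaaaggagccagtta, chr5:137605308-137605467, minus strand, coding, across a splice junction from exon 8 of 9

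The 34 members gave 156 tag types, of which 39 were listed in all 5 libraries. The AVC held 115 of them and the OFT 109, against 51 in the atria and 52 in the ventricles. Of the 135 types listed in the AVC or OFT, 77 were in neither chamber. Tags of the 3′-most site made up 76.0% of member tags (AVC), 76.9% (OFT), 89.2% (atria), 91.5% (ventricles) and 70.0% in the *Twist1* null AVC. All 34 members were listed in both cushion regions and in the *Twist1* null AVC, and 28 (atria) and 30 (ventricles) in the chambers.

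The sum over all members overlapped between cushion regions and chambers, while its make-up differed. The sum was 4594 TPM (AVC), 4803 (OFT), 3700.0 (atria), 4757 (ventricles) and 5246 in the *Twist1* null AVC. *Serpinh1* alone gave 62.6% of the member tags in the atria and 68.5% (ventricles), against 26.4% (AVC) and 26.2% (OFT). Without *Serpinh1* the sum was 3381 TPM (AVC) and 3543 TPM (OFT), against 1382 (atria) and 1499 (ventricles). The lysyl hydroxylases stood at 177 and 194 TPM in the AVC and OFT, against 54.6 and 40.2 in the atria and ventricles. For the prolyl hydroxylases and their partners these values were 355 and 370.2 against 82.3 and 124.

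**Figure D1:**
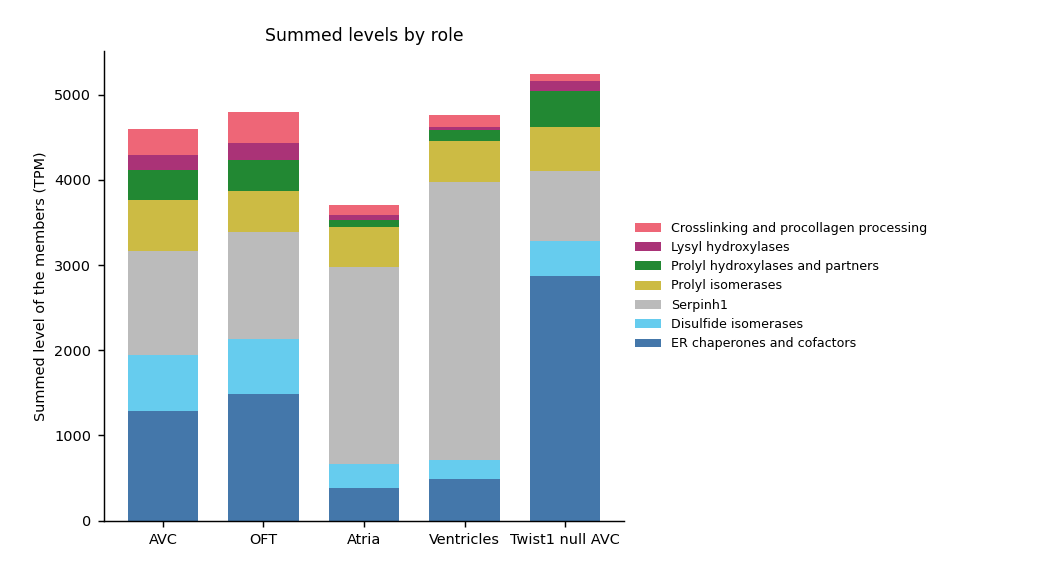
Summed level of the members in each library in TPM, stacked by role with Serpinh1 shown apart from the other collagen chaperones and isomerases. Serpinh1 is the largest part in the atria and ventricles, and ER chaperones and cofactors are the largest part in the Twist1 null AVC, at 2868 TPM.

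In 27 of 34 members both the AVC and the OFT were above both chambers, against 54.9% of all 12964 genes found in a wild-type library. In 3 members (*Pdia6*, *Serpinh1* and *Ppib*) both chambers were above both cushion regions, against 12.9% of all genes, and in *Fkbp14*, *Crtap*, *Lox* and *Loxl1* the regions overlapped.

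**Figure D2:**
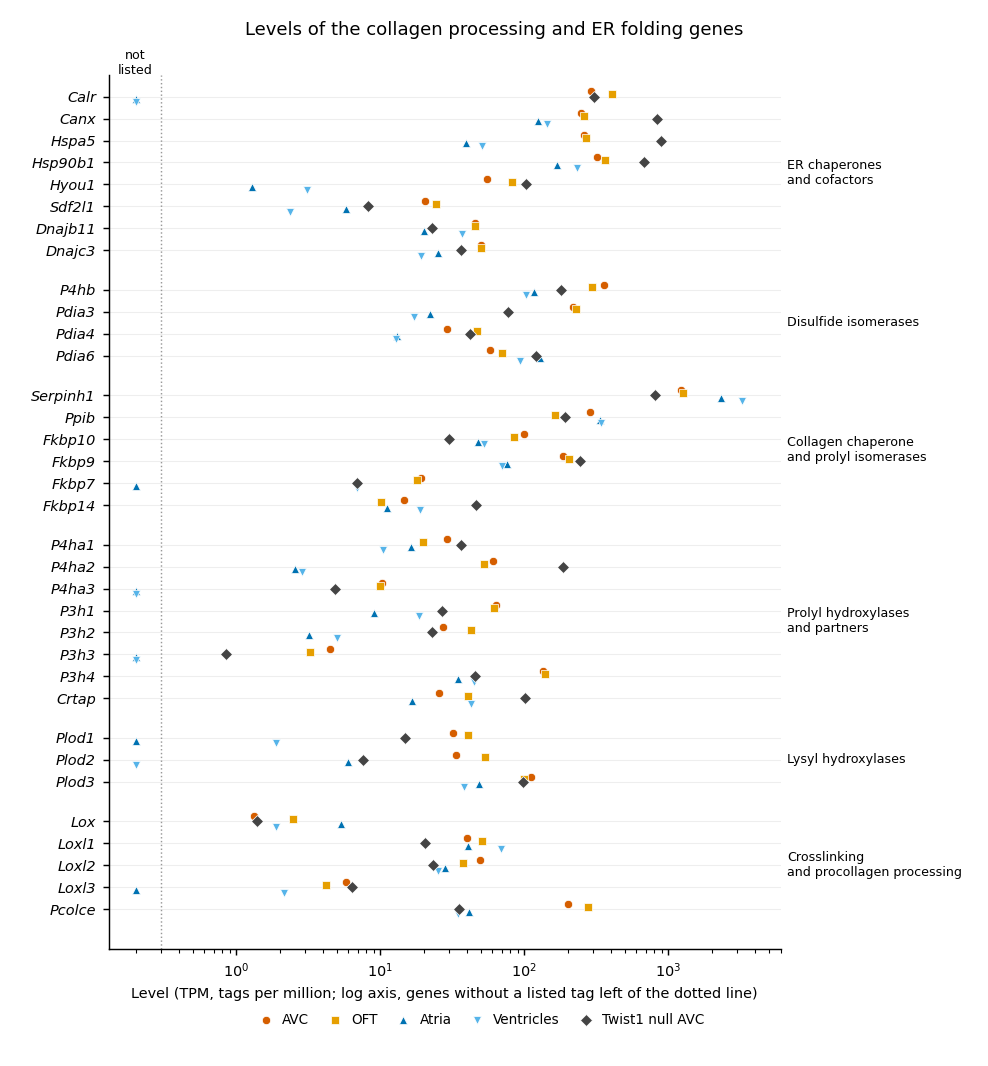
Level of each listed member in each library in TPM on a log axis, with genes grouped by role and a point for each library. Points left of the dotted line are genes without a listed tag, such as Calr, P4ha3 and P3h3 in the atria and ventricles.

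To ask which members differed between the cushion regions and the chambers, the AVC and the OFT were each tested against the summed atria and ventricles with the two-sided exact test of edgeR at a dispersion of 0.12. A gene with a Benjamini-Hochberg adjusted p under 0.05 over all genes is called higher or lower. Tag types that are not listed entered the tests and ratios as 0 tags. Where a lower bound is given instead of a ratio, it allows 5 tags in each chamber library for each tag type listed in the cushion region. It leaves out the other tag types that the gene can give, so the ratio of the whole gene can lie below it. The adjusted p does not test that bound. Each test compares single libraries and not the regions as such, and both comparisons use the same chamber libraries. In the AVC 16 of 34 members (47.1%) were called higher and 0 lower, where 35.6% of all 12503 genes were called higher and 5.53% lower. At an unadjusted p under 0.05, which 51.5% of all genes passed, 17 members passed and all 17 were higher. In the OFT 16 members were again called higher and 0 lower, where 34.1% of all 12451 genes were higher and 6.77% lower. Here 18 members, all higher, and 49.5% of all genes passed at an unadjusted p under 0.05. The called members were the same 15 genes in both, with *Loxl3* in the AVC alone and *Pdia4* in the OFT alone. Whether *Loxl3* or *Pdia4* differed between the AVC and the OFT is given by the direct comparison of these libraries below. Every adjusted p of a member below rests on the assumed dispersion. At a dispersion of 0.4, 3 of the 16 calls remained in the AVC and 4 of the 16 in the OFT. In that setting 5.07% and 6.26% of all genes were called in either direction.

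The ratios depended on the library scaling. The median log2 ratio over all genes was 1.23 (AVC) and 1.07 (OFT), against 1.52 and 1.65 for the members. TMM normalization moved the medians over all genes to 0.28 and 0.21. It left 8 members called higher in the AVC and called 3 lower (*Lox*, *Pdia6* and *Serpinh1*), beside 19.4% and 11.9% of all genes. In the OFT it left 10 higher and called 2 lower (*Ppib* and *Serpinh1*), beside 20% and 12.2% of all genes. Over all genes, the share of calls that were higher went from 86.5% to 62.0% in the AVC and from 83.5% to 62.3% in the OFT, and to 50.6% and 51.6% with GC correction.

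**Figure D3:**
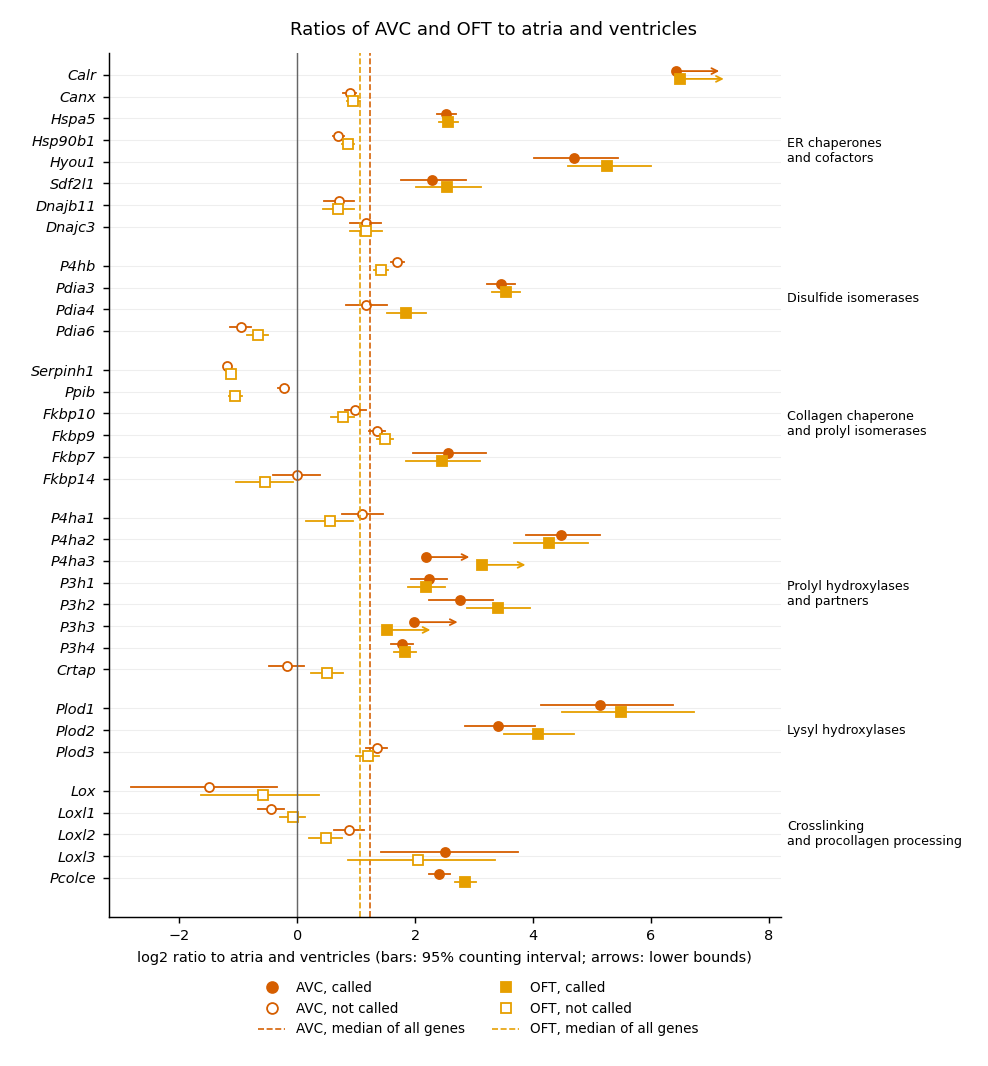
Ratio of the AVC and of the OFT to the summed atria and ventricles for each listed member, on a log2 scale. Bars are 95% counting intervals and filled points are calls. Arrows are lower bounds where the chambers have no listed tag, and cover only the tag types listed in the cushion region. Dashed lines mark the median of all genes, at 1.23 for the AVC and 1.07 for the OFT. Left of 0 lie 7 members for the AVC and 6 for the OFT, with Serpinh1, Pdia6 and Ppib among them in both comparisons.

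Among the 8 ER chaperones and cofactors, *Calr*, *Hspa5*, *Hyou1* and *Sdf2l1* were called higher in both cushion regions, beside 35.6% (AVC) and 34.1% (OFT) of all genes. The median log2 ratio of the group was 1.73 (AVC) and 1.85 (OFT), against 1.23 and 1.07 over all genes. *Calr* encodes calreticulin, which binds calcium and the sugars of new glycoproteins in the ER. It was at 289 TPM in the AVC (95% interval 276 to 303), 407 in the OFT and 302 in the *Twist1* null AVC, and was not listed in the atria or the ventricles. With 5 tags allowed in each chamber library for each tag type listed in the cushion region, the bound was 85.7-fold (AVC) and 90.4-fold (OFT). These bounds cover 3 (AVC) and 4 (OFT) of the 6 tag types that *Calr* can give. The exact test, with the chambers at 0 tags, gave adjusted p = 3.72e-15 (AVC) and 3.94e-16 (OFT). Both calls held in all 16 alternatives. The *Calr* value rests mainly on site 1, with 1581 (AVC), 1910 (OFT) and 3791 (*Twist1* null AVC) tags, but the tag at site 6, with 136 and 207 tags in the AVC and OFT, was also missing from both chambers. Of 747 tag types that reached 100 TPM in both cushion regions and in the *Twist1* null AVC, 2 were in neither chamber, and *Calr* site 1 was 1 of them.

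*Hspa5* encodes BiP, the HSP70 chaperone of the ER. It was at 259.6 TPM (AVC) and 266 (OFT), against 39.4 (atria) and 51.1 (ventricles), so that the regions did not overlap. The ratio was 5.77 in the AVC (95% interval 5.17 to 6.45, adjusted p = 0.00421) and 5.91 in the OFT (5.29 to 6.62, adjusted p = 0.00392). *Hyou1*, an HSP70-like exchange factor for BiP, was at 55.1 and 81.6 TPM in the AVC and OFT and at 1.29 and 3.08 TPM in the atria and ventricles. This was 25.8-fold in the AVC (adjusted p = 3.11e-06) and 38.2-fold in the OFT (adjusted p = 3.12e-07), although the chamber values rest on 6 and 13 tags. *Sdf2l1*, a partner of ER chaperones, was at 20.4 and 24.3 TPM in the AVC and OFT against 5.79 and 2.37 in the chambers, 4.90-fold (adjusted p = 0.0141) and 5.84-fold (adjusted p = 0.00697). The *Sdf2l1* call in the AVC did not hold against the atria alone (adjusted p = 0.0541), and the calls of *Hspa5* and *Sdf2l1* in both regions were lost under TMM normalization.

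The other 4 chaperones differed less between the regions and were not called. *Canx* (calnexin, the membrane-bound relative of calreticulin) was at 247 and 257 TPM in the AVC and OFT and at 124 and 143 in the chambers. *Hsp90b1* (GRP94, the HSP90 of the ER) was at 322 and 359.9 TPM against 168 and 232. The BiP cochaperone *Dnajb11* stood at 45.8 TPM (AVC), 45.4 (OFT), 20.1 (atria) and 36.7 (ventricles). *Dnajc3*, another, was at 49.9 TPM in both cushion regions and at 25.1 (atria) and 19.2 (ventricles).

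The tags of *Hsp90b1* did not move together. Site 2 was at 159 TPM (AVC) and 112 (OFT) against 15.9 and 22.5 (atria and ventricles), 8.35-fold in the AVC. Site 1 was at 151 and 246 TPM against 152 and 209.5, a ratio of 0.843. Site 1 starts with T after CATG and site 2 does not. Within 792 genes with at least 100 tags of each kind, the log2 ratio of the AVC to the chambers differed between tags that start with T and other tags by a median of -0.94, and that of the OFT by -0.83 over 732 genes. With tags that start with T left out, an alternative added after the data were seen, *Hsp90b1* was also called higher in both comparisons. In that alternative 14 of the 30 members tested (46.7%) were called in the AVC, beside 43.2% of all genes. In the OFT it was 13 of 29 (44.8%), beside 42.7%.

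**Figure D4:**
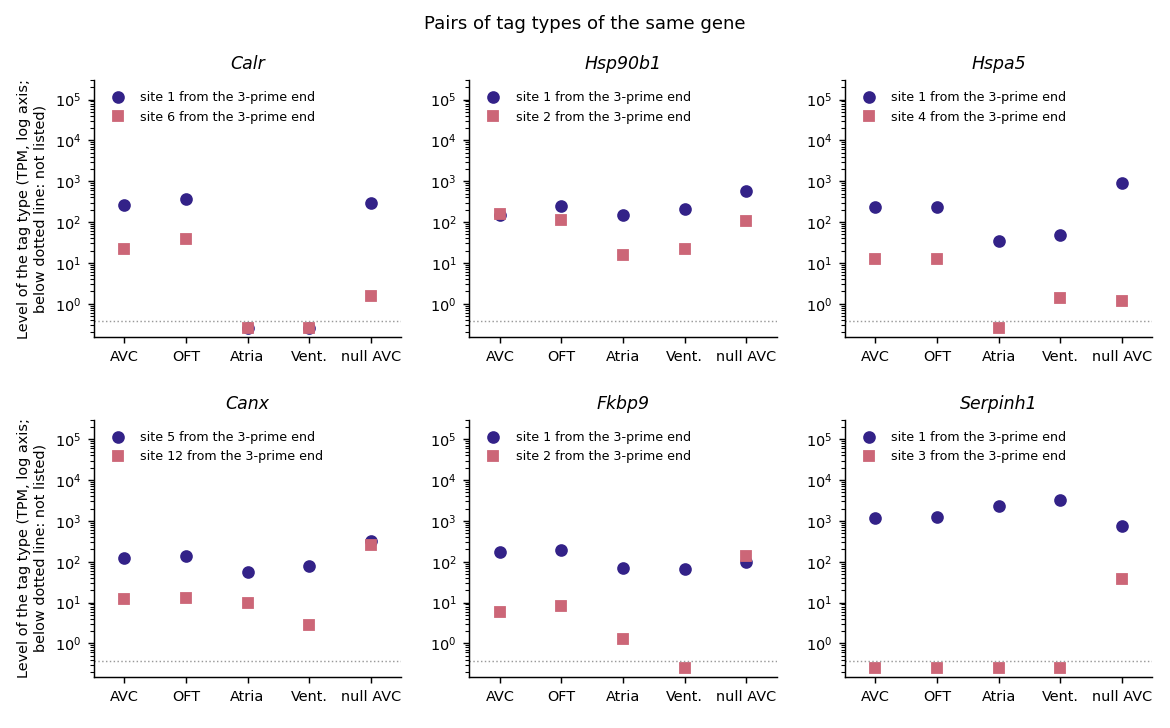
Level of a pair of tag types of the same gene in each library in TPM on a log axis, for 6 members, with sites counted from the 3′ end and values below the dotted line not listed. The 2 Hsp90b1 tags differ between AVC and chambers at site 2 alone, both Calr tags are missing from the chambers, and the second Canx and Fkbp9 tags and Serpinh1 site 3 are high in the Twist1 null AVC.

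Of the 4 disulfide isomerases *Pdia3* was called in both regions and *Pdia4* in the OFT. *Pdia3* (ERp57) joins disulfides in glycoproteins held by calnexin and calreticulin. It was at 217 TPM (AVC) and 229.5 (OFT), against 22.3 (atria) and 17.0 (ventricles), 10.9-fold in the AVC (95% interval 9.35 to 12.9, adjusted p = 0.000157) and 11.6-fold in the OFT (9.89 to 13.7, adjusted p = 0.000113). Most of its tags came from site 6 in exon 8 of 13, with 1137 of 1317 tags in the AVC, and both calls were lost when the 3′-most site alone was counted. *Pdia4* was at 29.1, 46.7, 13.1 and 12.8 TPM in the AVC, OFT, atria and ventricles, and its ratio in the OFT was 3.61 (adjusted p = 0.0395). That call held in 9 of 16 alternatives and was lost under TMM normalization (adjusted p = 0.304). *P4hb*, the isomerase that is also the beta subunit of prolyl 4-hydroxylase, was at 355 and 293 TPM in the AVC and OFT against 116 and 103 in the chambers and was not called (adjusted p = 0.0527 and 0.107). *Pdia6* ran the other way, at 57.4 and 69.9 TPM in the cushion regions and 128 and 93.8 in the atria and ventricles, and was called lower in the AVC with TMM normalization.

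The collagen chaperone and the prolyl isomerases had the lowest median log2 ratio of the 6 roles in both comparisons, 0.49 (AVC) and 0.11 (OFT), and these medians were below 0 under TMM normalization, at -0.46 and -0.75. *Serpinh1* (chr7:99345376-99353239) was at 1213 TPM (AVC), 1261 (OFT), 2318 (atria), 3258 (ventricles) and 813 in the *Twist1* null AVC. The chambers were 2.28-fold above the AVC (95% interval 2.22 to 2.34) and 2.19-fold above the OFT (2.13 to 2.25), and *Serpinh1* was not called at the tag totals (adjusted p = 0.171 and 0.199) but was called lower in both cushion regions under TMM normalization. In the atria and ventricles all of its tags, 10815 and 13761, were of site 1. *Ppib*, cyclophilin B, which speeds proline isomerization and is part of the prolyl 3-hydroxylase complex, was at 287 TPM (AVC), 162 (OFT), 334 (atria) and 341 (ventricles). It was not called at the tag totals.

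*Fkbp7*, an isomerase of the FK506-binding family in the ER, was the called member of this group. It was at 19.3 TPM (AVC) and 17.8 (OFT), at 6.87 (ventricles) and not listed in the atria, 5.90-fold in the AVC (adjusted p = 0.00758) and 5.47-fold in the OFT (adjusted p = 0.0109). Each call held in 11 of 16 alternatives. Neither held against the ventricles alone (adjusted p = 0.12 and 0.171) or under TMM normalization (adjusted p = 0.1103 and 0.108). *Fkbp10*, which acts with HSP47 on procollagen, was at 98.6 and 84.9 TPM in the cushion regions and 47.8 and 52.1 in the chambers. *Fkbp9* was at 185 and 204 TPM against 75.4 and 69.4. Neither *Fkbp10* nor *Fkbp9* was called. *Fkbp14* was at 14.6 TPM (AVC) and 10.1 (OFT), against 11.1 and 18.7 (atria and ventricles), so that the regions overlapped.

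Of the prolyl hydroxylases and partners 6 of 8 were called higher in each region, with a median log2 ratio of 2.49 in the AVC and 2.79 in the OFT. TMM normalization left 3 (AVC) and 4 (OFT) of them called. Without tags that start with T, 4 of 6 (AVC) and 3 of 5 (OFT) were called, beside 5 of 8 ER chaperones in each. The alpha subunits of prolyl 4-hydroxylase differed among themselves. *P4ha2* (chr11:54100095-54131665) was at 60.2 TPM (AVC) and 52.2 (OFT), against 2.57 (atria) and 2.84 (ventricles), 22.3-fold in the AVC (95% interval 14.8 to 35.3, adjusted p = 5.63e-06) and 19.3-fold in the OFT (12.7 to 30.7, adjusted p = 1.45e-05). *P4ha3* was at 10.2 and 9.87 TPM and not listed in either chamber. With 5 tags allowed in each chamber library for each tag type listed in the cushion region, the bound was 4.54-fold (AVC) and 8.78-fold (OFT). These bounds cover 2 (AVC) and 1 (OFT) of the 10 tag types that *P4ha3* can give, so they do not bound the whole gene. The exact test, with the chambers at 0 tags, gave adjusted p = 3.69e-06 (AVC) and 6.63e-06 (OFT). *P4ha1* was at 29.0 and 19.7 TPM against 16.3 and 10.4 and was not called.

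The prolyl 3-hydroxylase complex modifies single prolines of fibrillar collagens and is built from an enzyme, CRTAP and cyclophilin B. *P3h1* was at 63.2 and 61.7 TPM in the AVC and OFT against 9.0 and 18.5 in the atria and ventricles, 4.68-fold (adjusted p = 0.0129) and 4.57-fold (adjusted p = 0.0150). The *P3h1* calls were lost against the ventricles alone (adjusted p = 0.05002 and 0.0571) and under TMM normalization (0.177 and 0.1495). *P3h2* was at 27.3 and 42.7 TPM against 3.21 and 4.97, 6.75-fold (adjusted p = 0.00314) and 10.5-fold (adjusted p = 0.000329). Its AVC call held in 11 of 16 alternatives and was lost under TMM normalization (adjusted p = 0.0666), while its OFT call held in 15. *P3h4*, a partner of the family without the enzyme's activity, was at 135 and 139.9 TPM against 34.7 and 45.0, 3.42-fold (adjusted p = 0.0437) and 3.53-fold (adjusted p = 0.0388), and held in 8 of 16 alternatives in each region. The *P3h4* calls were lost against the ventricles alone (adjusted p = 0.0742 and 0.0672) and under TMM normalization (0.404 and 0.312). *Crtap* differed from these partners, with 25.5 TPM (AVC), 40.8 (OFT), 16.5 (atria) and 42.4 (ventricles) and no call.

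*P3h3* is uncertain. It was called higher in both regions from 27 (AVC) and 17 (OFT) tags and no tags of the chambers. The bound was 3.95-fold (AVC) and 2.87-fold (OFT). It covers the 1 listed tag type of the 12 that *P3h3* alone can give, so it does not bound the whole gene. Another of its virtual tags is shared with other genes, was at 4301 TPM in the AVC and 5530 TPM in the atria, and was not counted.

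All 3 lysyl hydroxylases were higher in the AVC and OFT libraries than in either chamber, as were 54.9% of all genes. *Plod1* and *Plod2* were called, beside 35.6% (AVC) and 34.1% (OFT) of all genes called higher. These enzymes make the hydroxylysines that carry sugars and crosslinks. *Plod1* (chr4:147909753-147936767) was at 31.8 TPM (AVC) and 40.6 (OFT), at 1.89 (ventricles) and not listed in the atria, 35.3-fold in the AVC (95% interval 17.6 to 82.9, adjusted p = 1.87e-06) and 45.1-fold in the OFT (22.5 to 106, adjusted p = 6.11e-07). Both *Plod1* calls held in every alternative that could be run for it, 15 in each region. *Plod2* (chr9:92542223-92608428), which acts on the telopeptides of fibrillar collagens, was at 33.6 TPM (AVC), 53.2 (OFT) and 6.00 (atria) and was not listed in the ventricles. The ratio was 10.7 in the AVC (7.16 to 16.4, adjusted p = 0.000387) and 16.9 in the OFT (11.4 to 25.9, adjusted p = 2.71e-05). *Plod3* was at 111 and 100.05 TPM against 48.6 and 38.4 and was not called.

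Lysyl oxidases act outside the cell. *Lox* was close to the smallest listed count, at 1.32 TPM (AVC, 8 tags), 2.47 (OFT), 5.36 (atria) and 1.89 (ventricles). *Loxl1* was at 39.7, 51.1, 40.3 and 69.1 TPM in the same order and *Loxl2* at 49.1, 37.2, 28.1 and 25.1. None of these was called. *Loxl3* was at 5.76 TPM (AVC), 4.18 (OFT) and 2.13 (ventricles) and was called in the AVC (5.69-fold, adjusted p = 0.0214) from 35 tags. The call was lost against the ventricles alone (adjusted p = 0.223) and under TMM normalization (0.207), and in the OFT it was missed (adjusted p = 0.0901). *Loxl4* had no tag in any library, where 20 virtual tags of its own would have been counted.

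*Pcolce* encodes an enhancer of the proteinase that removes the carboxyl propeptide of fibrillar procollagens. It was at 202 TPM (AVC) and 275 (OFT), against 41.1 (atria) and 34.6 (ventricles). The ratio was 5.31 in the AVC (95% interval 4.70 to 6.00, adjusted p = 0.00643) and 7.23 in the OFT (6.42 to 8.16, adjusted p = 0.00145). The AVC call was lost under TMM normalization and the OFT call was not.

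The atria and ventricles were not tested against each other, but their member levels can be set side by side. Of 27 members listed in both, the ventricle to atria ratio was within 2-fold for 22, with a median of 1.09. *Crtap* had the highest ratio, 2.57 (95% interval 1.96 to 3.40), followed by *Hyou1* at 2.39 and *P3h1* at 2.05. *Lox* had the lowest, 0.354 (0.138 to 0.809), and *Sdf2l1* followed at 0.409.

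To ask how alike the cushion regions were, the OFT was tested against the AVC. No member was called by edgeR's exact test, where 1.24% of all genes were called higher and 1.88% lower. At an unadjusted p under 0.05 it was 0 members and 12.6% of all genes. Every member ratio was within 2-fold, from 0.566 for *Ppib* (95% interval 0.521 to 0.614) to 1.87 for *Lox* (0.720 to 5.22), with a median of 1.04. *Pdia4* was at 1.60 (1.32 to 1.96) and *Loxl3* at 0.725 (0.405 to 1.27). Without the tags that start with T, *Plod2* was called higher in the OFT, beside 4.13% of all genes called in either direction. That call rests on 14 *Plod2* tags in the OFT against 0 in the AVC, while the tags left out numbered 266 and 204. A missed threshold at 1 library a side does not show that the regions were alike.

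The *Twist1* null AVC was tested against the wild-type AVC to ask which members differed between these libraries. Genotype, strain and library cannot be told apart in this comparison. *Pcolce* was the member called: it was at 35.1 TPM in the *Twist1* null AVC (95% interval 31.9 to 38.4) against 202 in the AVC (191 to 213), beside 41.1 (atria) and 34.6 (ventricles). The AVC was 5.76-fold above the null (5.16 to 6.42, log2 ratio -2.52, adjusted p = 0.0189). All genes gave 5.06% called higher and 3.93% lower. Of the 9 markers of cushion mesenchyme 2 were called lower there, beside the 4 erythroid markers called higher. These 9 include *Twist1*, the gene knocked out, at 4.55 TPM against 918 in the AVC. Of the 1226 *Pcolce* tags in the AVC 1188 were of site 1, which had 455 tags in the *Twist1* null AVC. The call held in 12 of 14 alternatives and was lost at a dispersion of 0.4 (adjusted p = 0.79) and, without tags that start with T and with TMM normalization, at 0.0796. Across the other 4 libraries *Pcolce* had its highest value in the OFT, 275 TPM.

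At an unadjusted p under 0.05, which 24.6% of all genes passed, 11 members passed, 5 higher (*Canx*, *Crtap*, *Fkbp14*, *Hspa5* and *P4ha2*) and 6 lower (*Pcolce*, *Plod2*, *P3h3*, *Fkbp10*, *P3h4* and *Pdia3*). Except for *Pcolce* these are given as levels. *Hspa5* was at 892 TPM in the *Twist1* null AVC against 259.6 in the AVC and *Canx* at 827 against 247. *P4ha2* was at 185 TPM against 60.2, *Crtap* at 101 against 25.5 and *Fkbp14* at 46.2 against 14.6. On the other side, *Plod2* was at 7.63 TPM in the *Twist1* null AVC against 33.6, *Fkbp10* at 30.1 against 98.6, *P3h4* at 45.1 against 135 and *Pdia3* at 76.4 against 217. Under TMM normalization *Crtap* was also called higher, beside 6.26% of all genes called higher and 3.06% lower. Over all members the median log2 ratio was -0.52, against -0.16 over all genes.

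Relative to the span of the 4 wild-type libraries, 10 members were above it in the *Twist1* null AVC, 4 were below it (*Serpinh1*, *Fkbp10*, *Loxl1* and *Loxl2*) and 20 were within it. Over all 13486 genes these shares were 28.7%, 8.42% and 62.9%. The role sums went both ways. ER chaperones and cofactors summed to 2868 TPM in the *Twist1* null AVC against 1288 in the AVC, with a median log2 ratio of 0.48 that was -0.82 without tags that start with T. Prolyl hydroxylases and partners summed to 424 TPM against 355, while crosslinking and procollagen processing genes summed to 86.2 against 298 and disulfide isomerases to 419 against 659. Lysyl hydroxylases summed to 120.0 TPM against 177, and the collagen chaperone and prolyl isomerases to 1330 against 1818.

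The direction of a member in this comparison went with the first base of its tags. Without haemoglobin, tags that start with T after CATG were 31.7% of the *Twist1* null AVC library, against 13.6% (AVC), 14.9% (OFT), 21.2% (atria) and 19.6% (ventricles). Among member tags they were 53.4% in the *Twist1* null AVC and 22.7% in the AVC. Within 1815 genes with at least 100 tags of each kind, tags that start with T had the higher log2 ratio in 81.2%, with a median log2 difference of 1.5. In the members, T tags with at least 100 tags in both libraries together were higher in the *Twist1* null AVC in 12 of 14 genes, with a median ratio of 2.76. The other tags were higher in 5 of 26 genes and lower in 21, with a median ratio of 0.494. The part of this shift in each member's value was not tested.

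**Figure D5:**
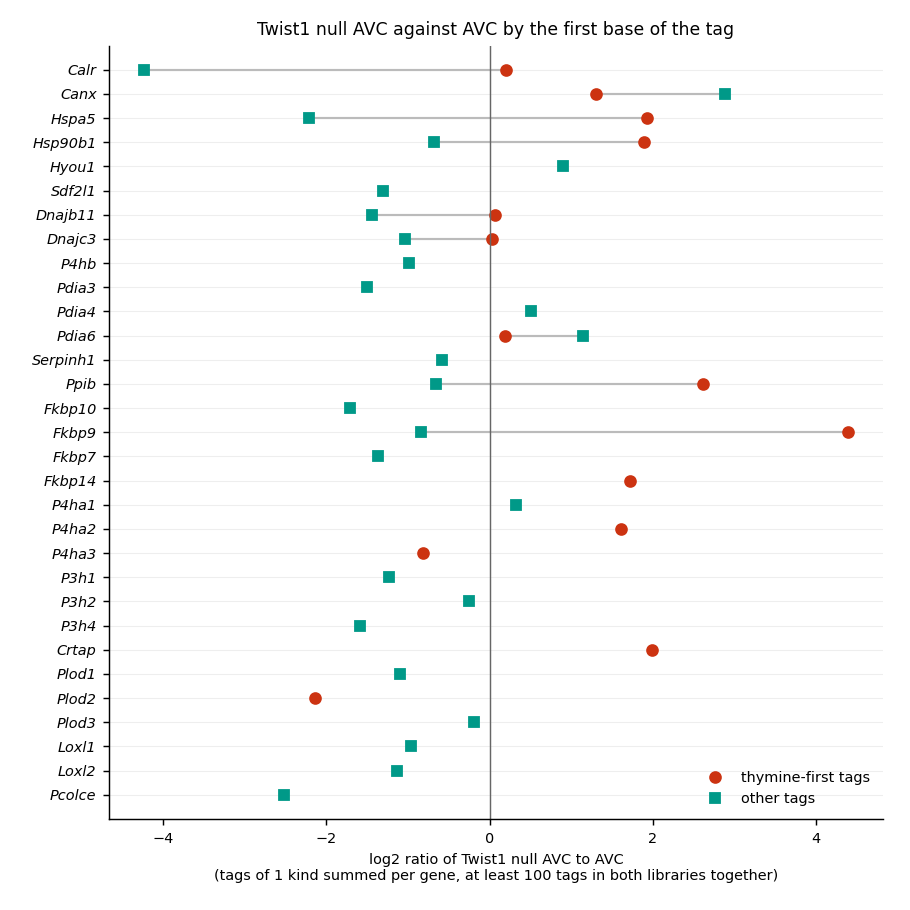
Ratio of the Twist1 null AVC to the AVC on a log2 scale for each member, with tags that start with thymine and other tags of the gene summed apart, where a kind has at least 100 tags in both libraries together. Thymine-first tags lie above 0 in 12 of 14 members, other tags lie below 0 in 21 of 26, and grey lines join both kinds within a gene.

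Single tags show the same split. *Hspa5* site 1, a T tag, had 11463 tags in the *Twist1* null AVC against 1391 in the AVC, 3.86-fold in TPM, while its site 4 had 15 against 77. *Hsp90b1* site 1 was 3.76-fold higher and site 2 was at a ratio of 0.655. *Fkbp9* site 2, again a T tag, was at 139 TPM in the *Twist1* null AVC and 5.76 in the AVC, while site 1 was at 99.3 against 174. In *Calr*, site 1 was at 292 TPM against 260.2, and site 6 at 1.54 against 22.4. *P4ha2* and *Crtap* were measured almost wholly by 1 T tag each, with 2394 and 1315 tags in the *Twist1* null AVC.

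Some members went against this split. *Canx* site 12 starts with A and was at 258 TPM in the *Twist1* null AVC against 12.0 in the AVC, 21.5-fold higher. Both tags of *Plod2* start with T and were lower, at 5.55 TPM against 17.1 for site 1 and 2.08 against 16.5 for site 4. *Pdia6* site 2, which starts with C, was at 113 TPM against 47.1. *Hyou1* had no T tag and was at 102 TPM in the *Twist1* null AVC against 55.1 in the AVC. Tags that do not start with T were also higher in *Pdia4*, at 41.3 TPM against 29.1, and in *P4ha1*, at 34.4 against 27.5. *Serpinh1* site 3 had 502 tags in the *Twist1* null AVC and was not listed in any other library, while site 1 was at 760.3 TPM against 1198. In all, 18 member tag types were listed in the *Twist1* null AVC alone. With tags that start with T left out, 3 of the 31 members tested (9.68%) were called, beside 9.34% of all genes called in either direction. *Pcolce* and *Calr* were lower and *Canx* higher.

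Many ER chaperone genes carry the ER stress response element, which is bound by NF-Y and ATF6. Its full form, CCAAT followed by any 9 bases and then CCACG, was searched on both strands of RefSeq promoters (250 bases before to 50 after the start, GRCm38.p6). It was found in 6 of the 26 members that have a promoter in that table (23.1%) and in 37 of 27025 genes (0.137%). The members were chosen by name from their known functions, ER chaperones among them, so the higher share follows from that choice. No tag count enters it. The matched letters are in capitals, and *Hsp90b1* holds a pair of them.
*Hspa5*: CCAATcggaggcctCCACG, chr2:34772025-34772043
*Calr*: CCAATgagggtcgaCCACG, chr8:84847075-84847093
*Hsp90b1*, gene strand: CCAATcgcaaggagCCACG, chr10:86705638-86705656
*Hsp90b1*, opposite strand: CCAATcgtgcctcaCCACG, chr10:86705533-86705551
*Canx*: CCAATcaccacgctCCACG, chr11:50325800-50325818
*Pdia6*: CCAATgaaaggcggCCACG, chr12:17266491-17266509
*Dnajc3*: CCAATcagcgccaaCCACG, chr14:118937827-118937845

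The match in *Calr* lies on the strand opposite to the gene, and those in the other genes are on the gene's strand apart from the second of *Hsp90b1*. The members with the element did not share a pattern across the libraries. *Calr* and *Hspa5* were called higher in both cushion regions, *Canx*, *Hsp90b1* and *Dnajc3* were higher without a call, and *Pdia6* was higher in the chambers. No matching letters in a window says nothing of the factors.

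The collagens themselves, the clients of these enzymes, were read from a list of 15 genes. In the AVC 7 were called higher and 0 lower, with a median log2 ratio of 1.87, and in the OFT 6 of 14 were called higher, where 35.6% and 34.1% of all genes were called higher. TMM normalization left 4 of 15 in the AVC, with a median of 0.92, and 5 of 14 in the OFT. *Col3a1* was at 1439 TPM (AVC) and 2337 (OFT) against 94.9 and 109 in the chambers. *Col2a1* was at 212 and 673 TPM in the same regions, at 6.63 in the ventricles and not listed in the atria, and *Col5a1* at 65.2 and 92.3 TPM against 5.36 and 8.05. Summed over the list, collagens were at 2835 TPM (AVC), 4227 (OFT), 717 (atria), 733 (ventricles) and 696 in the *Twist1* null AVC. In the *Twist1* null AVC 5 were called lower (*Col1a1*, *Col1a2*, *Col3a1*, *Col6a2* and *Col6a3*, named after their values were seen) and 0 higher, where 3.93% of all genes were called lower, and under TMM normalization 4 were. *Col3a1* was at 207 TPM there and *Col1a1* at 28.7 against 162 in the AVC. *Col6a3* was close to the smallest listed count, at 1.81 TPM in the AVC and not listed in the *Twist1* null AVC.

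Of 7 procollagen proteinases and enhancers, 3 had tags in the AVC. *Bmp1*, which cuts the carboxyl propeptide and is the enzyme that PCOLCE enhances, was at 57.8 TPM (AVC) and 63.2 (OFT) against 5.14 and 2.13 in the chambers, 15.6-fold in the AVC (adjusted p = 3.95e-05) and 17.0-fold in the OFT (adjusted p = 2.36e-05). *Pcolce2* was called higher in the AVC (5.74-fold, adjusted p = 0.0132) and lower in the *Twist1* null AVC, at 1.23 TPM against 8.39 (adjusted p = 0.0238). *Adamts2* was called lower in the OFT, where it was not listed. It was at 3.21 TPM in the atria and not listed in the ventricles, so the call rests on the atria alone. *Bmp1* was at 14.6 TPM in the *Twist1* null AVC and was not called.

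The general ER machinery held calls in both directions, to be read against the 35.6% of all genes called higher and the 5.53% called lower in the AVC. Of 16 translocon and signal peptidase genes in the AVC 3 were called higher (*Ssr1*, *Ssr2* and *Sec11a*) and 1 lower (*Ssr3*), with a median log2 ratio of 0.59, below the 1.23 of all genes. *Ssr3* was at 116 TPM in the AVC against 473 in the atria and 379 in the ventricles. Of 11 N-glycosylation and glucosidase genes 3 (*Dad1*, *Ganab* and *Uggt1*) were higher and 1 lower (*Stt3b*), with a median of 0.67. Under TMM normalization both medians were below 0, at -0.37 and -0.29. It gave 2 higher and 2 lower among the translocon genes and 1 of each among the N-glycosylation genes. Over all genes it called 19.4% higher and 11.9% lower.

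Among 17 genes of the unfolded protein response and ER-associated degradation the AVC had 6 called higher and 1 called lower (*Mbtps1*), and with TMM normalization 3 and 2. Here and for the next list, all genes gave 35.6% higher and 5.53% lower, and 19.4% and 11.9% with TMM normalization. *Syvn1*, a ubiquitin ligase of ER-associated degradation, was at 25.0 TPM (AVC) and 35.1 (OFT) and not listed in the chambers. *Creb3l2*, a transcription factor of secretory cells, was at 149.9 and 89.0 TPM against 15 and 12.8. Of 17 ER export and retrieval genes 8 were higher and 3 lower (*Kdelr1*, *Sec23b* and *Sec24a*) in the AVC, and 5 and 4 with TMM normalization. *Sec24c*, a COPII coat gene, was at 58.9 and 72.7 TPM against 3.08 in the ventricles and no listed tag in the atria, while *Sec24a* was at 21.9 and 15.2 TPM against 89.8 and 96.4. The genes called lower were named after their values were seen. In the *Twist1* null AVC, *Mogs*, a glucosidase, was the N-glycosylation gene called lower (adjusted p = 0.00871).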

How the data were processed

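The deposited counts are numbers of reads per 17-base tag, with 1 library per group. Per the study's methods the authors called bases with Bustard, kept reads that passed the Chastity filter, pooled embryos and kept tag types above 5 tags, and the submitters' processing notes name mm9. Genome coordinates here are on GRCm38.

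Every CATG site of 33363 RefSeq-linked GENCODE M21 transcripts, with 20 adenines added, gave 315529 distinct virtual tags, of which 308949 matched 1 gene and were used. Gene counts were the sums of these tags, from 4223810 to 12977237 tags a library. Sequences of promoters came from RefSeq (GRCm38.p6). edgeR's exact test, two-sided (version 4.0.16 in R 4.3.3), was run on all genes at a dispersion of 0.12, following the study, with tag totals as library sizes and Benjamini-Hochberg adjustment over all genes, and adjusted p-values are from it. It compares single libraries, since no group has a replicate from which to estimate a spread. Figures used matplotlib 3.10.9.

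Named genes were the 35 members, each as a level, and as a test result where called; pathway genes were named by smallest p, and those called lower were named after their values were seen. The members and all gene lists were chosen with earlier results of these data known. Alternatives numbered 14 set in advance and 2 added after the data were seen.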

Additional observations from a re-analysis of the deposited data

How the results depend on the processing

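Over the called members and all alternatives there were 513 results, of which 0 reversed and 98 were no longer called. Members not called at the main setting, such as *Serpinh1*, called lower under TMM normalization, are not among these results. An unadjusted p under 0.05 cannot lose a call. Against the chambers, 2 of the 16 members called for the AVC kept their call in every alternative run for them. For the OFT, 4 of its 16 called members did so. *Pcolce*, the member called in the *Twist1* null AVC, did not. At a dispersion of 0.4 the calls fell from 5137 to 634 genes and from 16 to 3 members in the AVC against the chambers, from 5095 to 780 genes and from 16 to 4 members in the OFT, from 1166 to 0 genes and from 1 to 0 members in the *Twist1* null AVC, and from 392 to 0 genes in the OFT against the AVC. At an unadjusted p under 0.05 with a dispersion of 0.12 the last 2 comparisons gave 3187 genes and 11 members, and 1577 genes. At a dispersion of 0.05 they gave 4117 genes and 14 members, and 965 genes, and the AVC against the chambers gave 7770 genes. Tag types above 10 tags gave 1952 genes and 2 members in the *Twist1* null AVC and 1062 genes in the OFT against the AVC, and at least 50 tags per gene gave 599 and 47 genes there and 3231 in the OFT against the chambers. GC correction gave 1053 genes in the OFT against the AVC. Members called in the *Twist1* null AVC were 2 with TMM normalization (beside 9.32% of all genes), 2 with DESeq2 size factors (9.28%), 5 with the 3′-most site alone (13.8%), 3 with GC correction (12.7%), 3 without tags that start with T (9.34%) and 2 without them and with TMM normalization (9.42%). Without such tags 1 member was called in the OFT against the AVC, also with TMM normalization. With both changes 10 of the 30 members tested were called in the AVC against the chambers, beside 34.3% of all genes. The shares of all genes called beside the members in the AVC and in the OFT against the chambers were 5.07% and 6.26% at a dispersion of 0.4. In the *Twist1* null AVC they were 24.6% at an unadjusted p under 0.05, 31.8% at a dispersion of 0.05 and 16.2% above 10 tags.

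No paired analysis was possible because each group had 1 library. A quasi-likelihood test and a DESeq2 test were not run, because no group had a replicate. Without replicates the p-values rest on the assumed dispersion, and a gene under 6 tags per tag type was not measured. The cause of these changes was not tested.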
